A study of Mus musculus with 8 samples.

Results

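The Dlx genes encode homeodomain transcription factors that pattern the pharyngeal (branchial) arches, the paired swellings of the embryo that form the jaws and other parts of the face and neck. The genes chosen are the 6 mouse members, Dlx1 to Dlx6, taken by their symbols from a table of 23420 genes. They were measured in 8 RNA libraries, each made from 1 mouse embryo taken 10.5 days post coitum, with the arches and the looping heart together. Of these, 4 embryos were Pygo2 wild-type and 4 were Pygo2 mutant littermates. The sources used here name neither the mutant allele nor the strain or sex. A level is therefore an average over arch mesenchyme, epithelium and heart. In such bulk samples fewer cells of a type and less RNA per cell cannot be told apart.

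Mammalian Dlx genes lie in convergently transcribed pairs, and the members of a pair share enhancers. In the arches of the mouse they are expressed in a nested order: Dlx1 and Dlx2 reach from the upper (proximal) to the lower (distal) part, Dlx5 and Dlx6 are limited to the lower jaw part, and Dlx3 and Dlx4 to its most distal part. Endothelin signalling through Ednra switches on the distal members in mouse, and loss of Dlx5 and Dlx6 together turns the lower jaw toward an upper jaw form. Here Dlx1 and Dlx2 are called proximal and Dlx3 to Dlx6 distal, although the first pair also covers the distal arch. Pygo2 encodes a nuclear protein that acts with β-catenin in Wnt signalling.

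All positions are from GENCODE M21 on GRCm38, the genome version that mm10 denotes. On chromosome 2, Dlx1 (ENSMUSG00000041911.3) runs from 71528113 to 71533981 on the plus strand and Dlx2 (ENSMUSG00000023391.8) from 71543408 to 71546754 on the minus strand, 9426 bases apart. On chromosome 11, Dlx3 (ENSMUSG00000001510.8) runs from 95120119 to 95125296 on the plus strand and Dlx4 (ENSMUSG00000020871.8) from 95140447 to 95146263 on the minus strand, 15150 bases apart. On chromosome 6, Dlx6 (ENSMUSG00000029754.13) runs from 6863334 to 6868568 on the plus strand and Dlx5 (ENSMUSG00000029755.10) from 6877805 to 6882085 on the minus strand, 9236 bases apart. All 6 are protein-coding.

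The homeobox, the coding segment for the DNA-binding homeodomain, is what makes these genes a family, and it is shown because it is also where reads of different members could be confused. Each sequence is 180 bases of the GENCODE M21 coding sequence, written in the direction of transcription. It spans an intron in each gene, from the first to the last base at chr2:71531025-71532311 for Dlx1 (plus strand), chr2:71544877-71545515 for Dlx2 (minus), chr11:95121767-95123456 for Dlx3 (plus), chr11:95141422-95141920 for Dlx4 (minus), chr6:6878441-6879657 for Dlx5 (minus) and chr6:6865140-6867088 for Dlx6 (plus). Capitals mark a base that differs from the one found in more than 3 of the 6 genes.
Dlx1: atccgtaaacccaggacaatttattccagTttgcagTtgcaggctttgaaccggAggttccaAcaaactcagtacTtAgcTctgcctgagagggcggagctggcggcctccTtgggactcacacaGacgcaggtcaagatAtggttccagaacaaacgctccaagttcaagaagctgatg
Dlx2: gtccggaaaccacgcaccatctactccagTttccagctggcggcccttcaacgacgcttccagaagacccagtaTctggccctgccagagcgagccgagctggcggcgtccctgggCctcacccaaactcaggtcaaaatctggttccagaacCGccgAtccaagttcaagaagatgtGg
Dlx3: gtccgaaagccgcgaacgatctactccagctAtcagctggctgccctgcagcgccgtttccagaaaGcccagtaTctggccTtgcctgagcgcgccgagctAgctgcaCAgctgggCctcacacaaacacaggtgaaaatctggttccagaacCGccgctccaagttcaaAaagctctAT
Dlx4: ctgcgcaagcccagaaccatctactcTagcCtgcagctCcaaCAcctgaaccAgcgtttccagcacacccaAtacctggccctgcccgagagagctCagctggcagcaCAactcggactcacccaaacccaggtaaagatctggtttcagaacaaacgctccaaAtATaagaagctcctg
Dlx5: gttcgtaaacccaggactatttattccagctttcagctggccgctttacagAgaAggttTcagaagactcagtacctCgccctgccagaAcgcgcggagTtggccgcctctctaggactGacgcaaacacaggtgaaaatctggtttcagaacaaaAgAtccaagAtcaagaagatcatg
Dlx6: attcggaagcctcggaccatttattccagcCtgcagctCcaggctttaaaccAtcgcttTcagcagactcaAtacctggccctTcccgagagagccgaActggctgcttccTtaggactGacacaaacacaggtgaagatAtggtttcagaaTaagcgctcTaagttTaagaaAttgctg

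Of the 180 positions 92 carried the same base in all 6 genes. Over the 15 pairs of genes, identity ran from 66.1% (Dlx3 and Dlx6) to 81.7% (Dlx2 and Dlx3). Genes of the same chromosomal pair were no closer in this segment than others, at 73.9% for Dlx1 and Dlx2, 71.7% for Dlx3 and Dlx4 and 73.3% for Dlx5 and Dlx6. The longest run of bases shared exactly by any 2 of the full transcripts was 23. The sources used here do not state the read length, so how many reads fell wholly in a shared run cannot be given.

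Promoter windows (250 bases before to 50 after a start site, from RefSeq on GRCm38.p6) were at hand for Dlx1 and Dlx2. For the other 4 members no window was at hand, so only these 2 are shown. That of Dlx1 lies at chr2:71529195-71529494 on the plus strand and that of Dlx2 at chr2:71546705-71547004 on the minus strand. Capitals mark matches to CANNTG, the E-box read by basic helix-loop-helix factors such as Hand2 and Twist1.
Dlx1: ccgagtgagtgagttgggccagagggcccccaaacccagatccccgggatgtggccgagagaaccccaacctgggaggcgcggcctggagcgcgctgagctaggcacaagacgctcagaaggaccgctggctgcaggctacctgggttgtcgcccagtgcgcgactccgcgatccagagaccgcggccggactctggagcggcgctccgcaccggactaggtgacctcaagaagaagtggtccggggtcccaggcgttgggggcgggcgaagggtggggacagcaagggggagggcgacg
Dlx2: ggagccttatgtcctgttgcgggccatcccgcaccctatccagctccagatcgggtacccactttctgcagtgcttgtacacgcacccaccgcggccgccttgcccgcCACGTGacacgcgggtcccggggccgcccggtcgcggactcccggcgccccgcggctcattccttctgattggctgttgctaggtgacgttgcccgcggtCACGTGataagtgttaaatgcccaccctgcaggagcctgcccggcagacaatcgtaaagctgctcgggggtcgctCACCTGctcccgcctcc

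Both windows were rich in G and C (69.3% and 66.3%, against a median of 52.7% over 32851 promoters) and held 27 and 29 CpG dinucleotides. The Dlx2 window held 3 E-box matches and the Dlx1 window 0, while 72.3% of all promoters held at least 1. The Tcf/Lef core CTTTGA was found in 0 of the 2 windows and in 16.0% of all promoters on either strand. The homeodomain core TAATTA was likewise found in 0 of the 2 and in 5.29% of all. A match describes letters in a window only.

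Library totals ran from 2.08e+07 to 2.82e+07 counts, and the common biological coefficient of variation was 26.3%. Levels are CPM, the counts a gene would have in a library of 1000000, on TMM-scaled library sizes. Pygo2 was at 44.6 to 56.2 CPM in wild-type and 17.3 to 22.0 CPM in mutant libraries and lower in every mutant (log2 fold change -1.40, SE 0.12, edgeR quasi-likelihood adjusted p = 0.00805), and was the 1 gene called among 14861 tested. Erythroid and neural markers varied several-fold between libraries of the same group. The arch mesenchyme markers Prrx1 and Pdgfra were at 143 to 247 and 288 to 450 CPM, so both were detected in every dissection. Alx1, of the same marker list, ran from 0.668 CPM in mutant 1 to 22.2 CPM in wild-type 4. How much arch mesenchyme each dissection held was not measured. Each embryo is 1 replicate.

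All 6 Dlx genes were expressed and passed the filter on low counts. On a scale of CPM per kilobase of exon, which allows for gene length, the order in wild-type embryos was Dlx3 at 4.29 ± 1.09, Dlx5 at 3.39 ± 1.15, Dlx1 at 3.28 ± 1.004, Dlx2 at 3.16 ± 0.608, Dlx6 at 2.85 ± 0.768 and Dlx4 at 0.441 ± 0.231 (SD, n = 4 each). From Dlx3 to Dlx6, neighbours in this order differed by less than the spread between embryos. Dlx4 stood apart: its highest wild-type value, 0.758, lay below the lowest of the other members, 1.82. Dlx3 ranked first in 7 of the 8 libraries (in wild-type 3 it came behind Dlx2 and Dlx5), and Dlx4 ranked last in all 8. The first place depends on the length scaling. In CPM without it, Dlx1 was the highest member in every library but mutant 1, with wild-type means of 17.7 for Dlx1 and 11.2 for Dlx3. The exon lengths used were 5396 bases for Dlx1 and 2607 for Dlx3. The annotation used for counting is not given, so the counted lengths may differ.

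**Figure D1:**
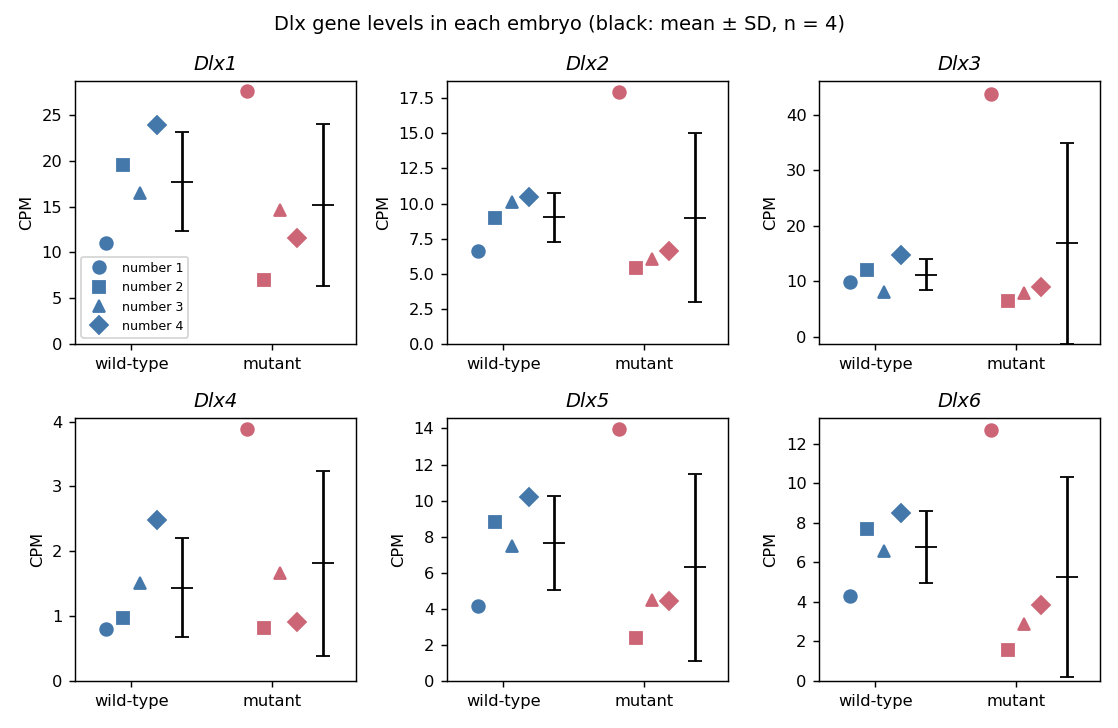
CPM (y axes, linear, each gene with its own scale) of Dlx1 to Dlx6 in 4 wild-type (blue) and 4 mutant (red) libraries, with a symbol for each embryo number and the group mean ± SD in black. Mutant 1, the red circle, is the highest point in all 6 panels, from 3.88 CPM for Dlx4 to 43.8 CPM for Dlx3.

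No Dlx gene passed the test between Pygo2 mutant and wild-type embryos, and the spread among mutants was wide. In the edgeR quasi-likelihood fit over all genes 0 of the 6 members passed an adjusted p of 0.05 (adjusted p = 0.99997 for each), where 0.00673% of all genes did. At an unadjusted p under 0.05 there were also 0 of 6, against 1.3% of all genes. The groups overlapped for 6 of 6, and 1.04% of all genes had no overlap. Mutant 1 had the highest level of the 8 libraries for each of the 6 genes. Of all genes tested, 22.9% were highest and 24.5% lowest in mutant 1.

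Among the proximal members, Dlx1 was at 11.02, 19.5, 16.4 and 23.9 CPM in wild-type 1 to 4 and at 27.6, 7.04, 14.6 and 11.6 CPM in mutant 1 to 4. Mutant 1 was the highest and mutant 2 the lowest of all, and the other mutants lay inside the wild-type range. The group levels were 17.7 ± 5.42 and 15.2 ± 8.84 CPM (SD, n = 4 each) and the log2 fold change was -0.22 (95% interval -1.10 to 0.66). Dlx2, which acts redundantly with Dlx1 in mouse arches, was at 6.61, 8.98, 10.1 and 10.5 CPM in wild-type 1 to 4 and at 18.0, 5.39, 6.03 and 6.65 CPM in mutant 1 to 4. Mutants 2 and 3 lay below the lowest wild-type value and mutant 4 just above it, and mutant 1 was 1.71 times the next highest library. The group means were nearly equal, 9.03 ± 1.73 and 9.01 ± 5.99 CPM (SD, n = 4 each; log2 -0.01, interval -0.87 to 0.85).

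Among the distal members, Dlx3, which also marks surface ectoderm and its derivatives, had the widest spread. It was at 9.96, 12.02, 8.07 and 14.7 CPM in wild-type 1 to 4 and at 43.8, 6.48, 7.95 and 9.03 CPM in mutant 1 to 4. Mutant 1 held 2.99 times as much as the next library, while the other mutants were at 7.82 ± 1.28 CPM (SD, n = 3) beside a wild-type mean of 11.2 ± 2.83 (SD, n = 4). The log2 fold change over all libraries was 0.58 (interval -0.73 to 1.90). Dlx4, its neighbour on chromosome 11, had 18 to 66 counts in wild-type and 23 to 93 in mutant libraries. Its levels were 0.793, 0.974, 1.52 and 2.48 CPM in wild-type 1 to 4 and 3.88, 0.810, 1.66 and 0.903 CPM in mutant 1 to 4. Mutant 1 lay above the wild-type range and the other mutants inside it (log2 0.32, interval -0.93 to 1.57).

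Dlx5 and Dlx6 are the pair on which lower jaw identity depends in mouse. Dlx5 was at 4.14, 8.81, 7.48 and 10.2 CPM in wild-type 1 to 4 and at 13.95, 2.36, 4.48 and 4.44 CPM in mutant 1 to 4. Mutant 1 was again the highest, mutant 2 lay below the wild-type range, and mutants 3 and 4 lay just above its lowest value (log2 -0.28, interval -1.43 to 0.86). Dlx6 was at 4.32, 7.71, 6.55 and 8.52 CPM in wild-type 1 to 4 and at 12.7, 1.58, 2.90 and 3.86 CPM in mutant 1 to 4. Mutants 2 to 4 all lay below the lowest wild-type value, which held for no other Dlx gene (log2 -0.37, interval -1.64 to 0.90).

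**Figure D2:**
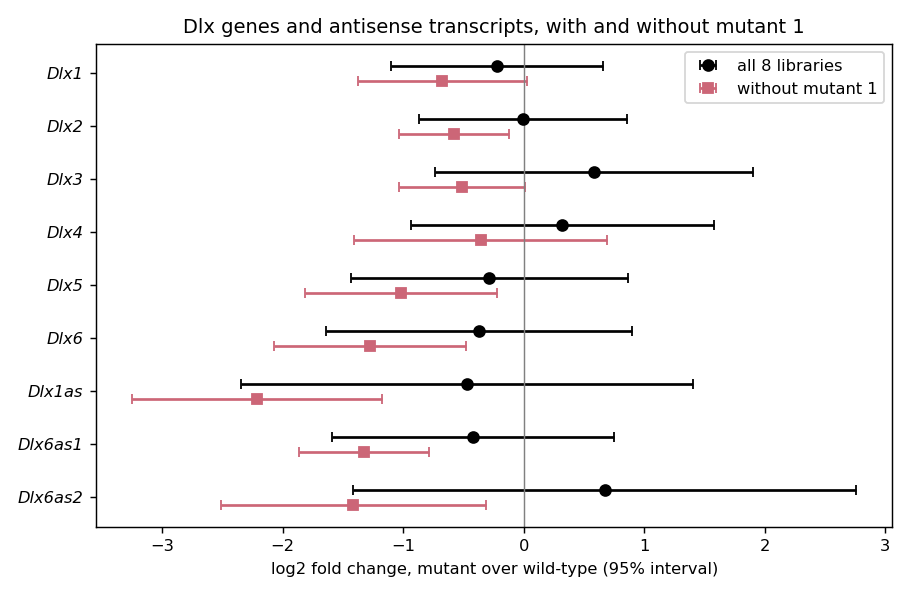
Log2 fold change of mutant over wild-type (x axis) with 95% intervals for the 6 Dlx genes and 3 antisense transcripts, from all 8 libraries (black circles) and without mutant 1 (red squares). With all libraries every interval spans 0, and without mutant 1 every estimate lies below 0, from -0.36 for Dlx4 to -2.21 for Dlx1as.

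Mutant 1 was singled out after these values were seen, as the highest library for all 6 genes. Leaving it out was therefore bound to lower each estimate, and the values without it are a description. With all 8 libraries the estimates of Dlx3 and Dlx4 lay above 0 and the other 4 below it. Without that library the log2 fold changes of the quasi-likelihood fit were all below 0: -0.67 (SE 0.31) for Dlx1, -0.58 (SE 0.20) for Dlx2, -0.51 (SE 0.23) for Dlx3, -0.36 (SE 0.46) for Dlx4, -1.02 (SE 0.35) for Dlx5 and -1.28 (SE 0.35) for Dlx6. In that fit 0 of 6 passed (adjusted p = 0.99976 for each), where 0.00659% of all genes did. At an unadjusted p under 0.05, 3 of 6 were lower, Dlx2, Dlx5 and Dlx6, against 1.31% of all genes. These shares are not on an equal footing, since mutant 1 was the highest library for only 22.9% of all genes tested. Other tissues moved in the same fit: neural markers were higher for 12 of 12 tested genes (median log2 1.14), erythroid genes lower for 6 of 6 (median -0.97) and arch mesenchyme genes lower for 11 of 12 (median -0.33), beside a median near 0 over all genes. Their part in the Dlx values was not tested. Dlx6 was the member whose mutants 2 to 4 lay below every wild-type library, as 1.92% of all genes did. Whether Dlx5 and Dlx6 differed more than the other members was not tested. A further fit took the embryo number as a block. Same-numbered libraries varied together for numbers 1 and 3 but only weakly for 2 and 4, and the labels give no pairing. In the block fit the log2 fold changes were -0.36, -0.19, 0.10, 0.15, -0.57 and -0.78 for Dlx1 to Dlx6, and 0 of 6 passed (edgeR quasi-likelihood adjusted p from 0.985 to 0.998).

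Libraries of the same number were also set side by side as pairs, a pairing that the labels do not give. In pair 1 the mutant exceeded its wild-type for all 6 genes, by 1.32 (Dlx1) to 2.18 (Dlx4) on the log2 CPM scale. In pair 2 the mutant was lower for all 6, with differences from -0.24 (Dlx4) to -2.23 (Dlx6), and in pair 4 for all 6, from -0.65 (Dlx2) to -1.38 (Dlx4). In pair 3 the mutant was lower for 5 of 6 and Dlx4 was at 0.12.

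The balance of distal to proximal members did not differ between genotypes beyond the spread of the mutants. The mean log2 CPM of Dlx3 to Dlx6 minus that of Dlx1 and Dlx2 was -1.27, -1.29, -1.36 and -1.07 in wild-type 1 to 4 and -0.75, -1.50, -1.35 and -1.31 in mutant 1 to 4. The group means were -1.25 ± 0.126 and -1.23 ± 0.329 (SD, n = 4 each), a difference of 0.02; no test was made, since this is a score over chosen genes. Mutants 3 and 4 fell inside the wild-type range, mutant 2 below it and mutant 1 above it, so the embryo with the most Dlx RNA also had the most distal balance and the one with the least had the least. The summed level of the 6 genes ranged from 36.9 to 70.3 CPM in wild-type and from 23.7 to 119.9 CPM in mutant libraries. Leaving out Dlx4, the scarcest member, moved the difference to -0.12, and leaving out mutant 1 to -0.14.

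**Figure D3:**
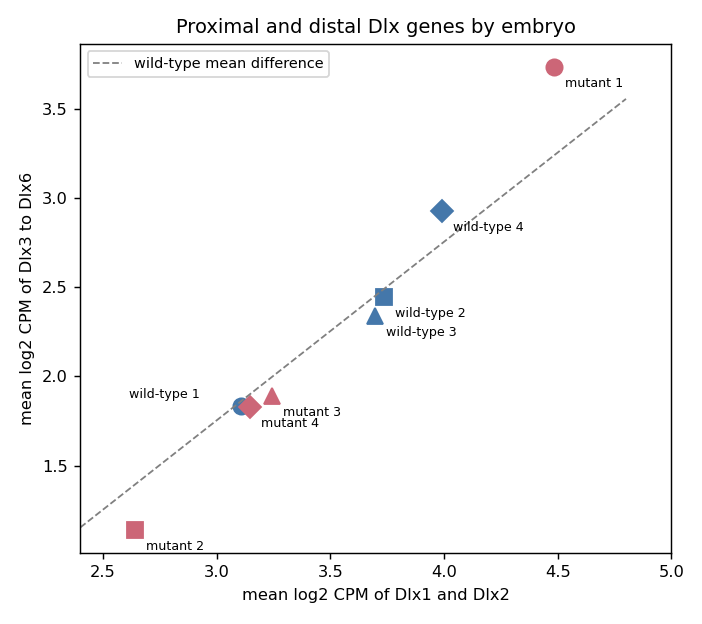
Mean log2 CPM of Dlx3 to Dlx6 (y axis) against that of Dlx1 and Dlx2 (x axis) for each wild-type (blue) and mutant (red) embryo, with a dashed line at the mean wild-type difference of -1.25. Mutant 1 lies above the line at -0.75 and mutant 2 below it at -1.50, at opposite ends of both axes.

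The Dlx genes rose and fell together from embryo to embryo, across chromosomes as well as within pairs. Over the 8 libraries the 15 pairwise correlations of log2 CPM ran from r = 0.688 to 0.981. After Benjamini-Hochberg adjustment over the 15, 14 passed by Pearson's r and 12 by Spearman's rho (exact permutation of pairings). The share that would pass among all pairs of genes was not computed, so these counts do not set the Dlx genes apart from other genes. Without mutant 1 r ran from 0.443 to 0.974, and without the 2 libraries farthest from the median of the first gene from -0.18 to 0.948. For Dlx5 and Dlx6 Pearson's r was 0.977 (exact permutation p = 0.000347, adjusted 0.00260) and Spearman's rho 0.905 (p = 0.00456, adjusted 0.00978). For Dlx1 and Dlx2 r was 0.877 (exact permutation p = 0.00494, adjusted 0.0123) and rho 0.905 (p = 0.00456, adjusted 0.00978). Leaving out the 2 libraries farthest from the median of the first gene, mutants 1 and 2 in both cases, gave r = 0.934 and 0.813.

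The pair on chromosome 11 was the loosest. For Dlx3 and Dlx4 r was 0.786 (exact permutation p = 0.0201, adjusted 0.0215) but rho was 0.5 (p = 0.216, adjusted 0.216). Without mutant 1 and wild-type 4 r was -0.18, so this relation rests on those libraries. Without the same libraries r also fell to 0.424 for Dlx4 with Dlx5 and 0.223 for Dlx4 with Dlx6. The closest of all 15 was Dlx1 with Dlx5, on different chromosomes, at r = 0.981 (exact permutation p = 2.48e-05, the smallest 40320 pairings allow, adjusted 0.000372), rho = 1 (p = 4.96e-05, adjusted 0.000744) and 0.947 without mutants 1 and 2. All libraries share their dissection and depth across genes, and genotype groups are pooled in these values. For Dlx1 and Dlx5 the correlation of deviations from the group means was 0.980.

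Ranked among all 14860 other tested genes by r, Dlx5 was the gene most like Dlx1, and Dlx1 and Dlx6 were the first and second most like Dlx5. Dlx5 was also the most like Dlx6. Other members ranked lower. The partner of Dlx3 by position, Dlx4, ranked 305 for Dlx3, whose other members ranked from 36 (Dlx2) to 339 (Dlx1). For Dlx6, Dlx4 ranked 519. Among 11235 genes outside the family with a mean of at least 5 CPM, those with the highest r over the 8 libraries were Hint2 (0.977), Barx1 (0.940) and Rabep2 (0.939) for Dlx1, Gtpbp3 (0.949), Gmppa (0.937) and Mertk (0.930) for Dlx2, and Gtpbp3 (0.950), Chmp6 (0.936) and Rarg (0.936) for Dlx3. They were Ccdc57 (0.963), Zgpat (0.939) and Enpp2 (0.924) for Dlx4, Slc7a6os (0.948), Hint2 (0.939) and Ythdc1 (0.936) for Dlx5, and Slc7a6os (0.973), Zbtb14 (0.956) and Opa1 (0.955) for Dlx6.

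For the proximal mean the 5 genes with the highest r were Gtpbp3 (0.949), Hint2 (0.947), Ythdc1 (0.925), Barx1 (0.919) and Gmppa (0.914). For the distal mean they were Gtpbp3 (0.972), Gmppa (0.950), Hint2 (0.936), Inip (0.923) and Galnt18 (0.922). These are the top of a long list over 8 points and carry no test. Barx1, a homeobox gene of arch mesenchyme, was at 8.46, 14.1, 19.9 and 21.1 CPM in wild-type 1 to 4 and at 26.8, 5.11, 14.9 and 12.3 CPM in mutant 1 to 4. Like the Dlx genes it was highest in mutant 1 and lowest in mutant 2, and its r with Dlx1 was 0.918 without mutant 1.

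Antisense transcripts of the Dlx loci were, like the Dlx genes, highest in mutant 1, but they were lowest in mutant 4, where 5 of the 6 Dlx genes were lowest in mutant 2. Dlx1as (ENSMUSG00000084946.2, minus strand of chromosome 2, 71516454 to 71537891) shares 335 exonic bases with Dlx1, 20.6% of its own exons. Dlx6as1, annotated as Dlx6os1 (ENSMUSG00000090063.6, minus strand of chromosome 6, 6820189 to 6871592) and also known as Evf2, is a long noncoding RNA that regulates Dlx5 and Dlx6 in the mouse forebrain. It shares 0 exonic bases with Dlx6. Dlx6as2, annotated as Dlx6os2, shares 104 exonic bases with Dlx6. The kit marks strand, but the sources used here do not state the strand setting of the counting, so reads in shared bases may be assigned to either gene.

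Dlx1as was at 12.9, 15.6, 11.3 and 20.7 CPM in wild-type 1 to 4 and at 34.1, 5.46, 3.05 and 1.23 CPM in mutant 1 to 4. Mutants 2 to 4 all lay below and mutant 1 above the wild-type range (log2 -0.47, SE 0.83, edgeR quasi-likelihood adjusted p = 0.99997; log2 -2.21, SE 0.45 and adjusted p = 0.99976 without mutant 1). Dlx6as1 was at 24.7, 40.6, 42.4 and 45.3 CPM in wild-type 1 to 4 and at 69.0, 16.0, 18.1 and 11.5 CPM in mutant 1 to 4, split in the same way (log2 -0.42, SE 0.52; log2 -1.32, SE 0.24 without mutant 1). Dlx6as2 was scarce, with 10 to 24 counts in wild-type libraries, 101 in mutant 1 and 4 to 11 in mutants 2 to 4. Of these 3 transcripts 0 passed in either fit.

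Within a library, Dlx1as did not keep step with Dlx1. The ratio of raw Dlx1as to Dlx1 counts was 1.17, 0.798, 0.688 and 0.867 in wild-type 1 to 4 and 1.23, 0.775, 0.209 and 0.106 in mutant 1 to 4. Mutants 3 and 4 lay far below the wild-type range, on 81 and 34 Dlx1as counts beside 387 and 320 Dlx1 counts, mutant 2 lay inside it and mutant 1 just above it. The ratio of Dlx6as1 to Dlx6 was 5.71, 5.27, 6.47 and 5.32 in wild-type 1 to 4 and 5.44, 10.1, 6.25 and 2.97 in mutant 1 to 4, with mutant 2 above and mutant 4 below the wild-type range. The ratio of Dlx6 to Dlx5 was steadier, 0.835 to 1.04 in wild-type and 0.647 to 0.910 in mutant libraries. The neural marker list was also high in mutants 3 and 4, at 674 and 575 summed CPM, but was as high in wild-type 3 (588), whose Dlx1as ratio was 0.688; its part in the ratio was not tested.

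**Figure D4:**
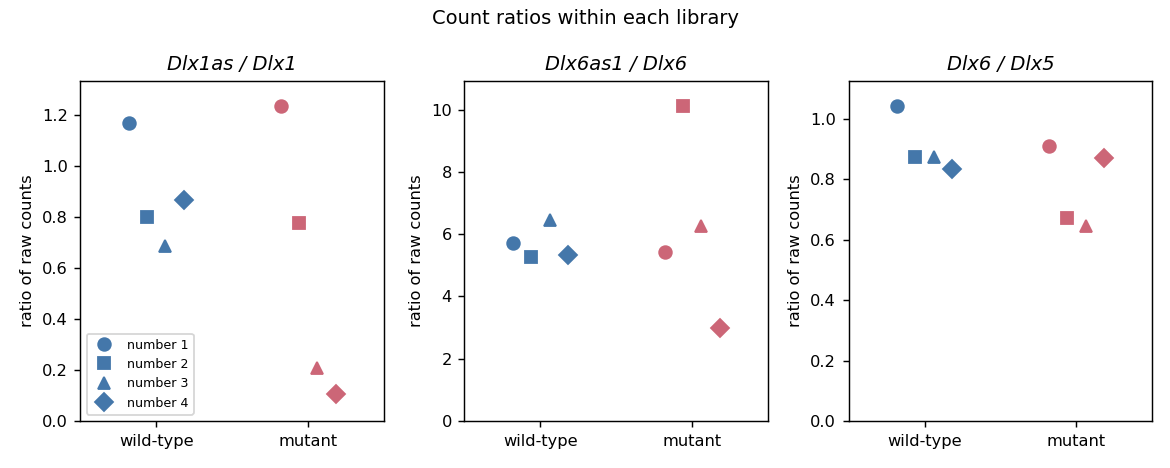
Ratios of raw counts within each library (y axes, linear from 0) for Dlx1as over Dlx1, Dlx6as1 over Dlx6 and Dlx6 over Dlx5, by genotype and embryo number. The Dlx1as ratio is 0.209 and 0.106 in mutants 3 and 4 and 0.688 or more in the wild-type libraries.

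The endothelin pathway lies upstream of the distal members. Among its 9 listed genes 4 had a higher and 5 a lower mutant mean, and 0 passed. Their median log2 fold change was -0.05, beside 7430 higher, 7431 lower and a median near 0 over all genes. Edn1, the ligand, averaged 6.88 ± 2.14 CPM over wild-type and 6.18 ± 1.68 CPM over mutant libraries (SD, n = 4 each). The members with the smallest p were Plcb4, a phospholipase of the receptor's signal (log2 0.15, SE 0.16), Edn1 (-0.15, SE 0.28) and Gnaq, its G protein (-0.06, SE 0.13). In mutant 1, where the Dlx genes were highest, Edn1 was at 6.73 and its receptor Ednra at 44.4 CPM, both inside their wild-type ranges, while the list's mean log2 CPM, 5.61, was the highest of the 8 libraries (4.94 to 5.58 in wild-type).

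Genes of the distal mandibular arch, several of which act below Dlx5 and Dlx6 in mouse, had lower mutant means in 10 of 12 cases and higher in 2, and 0 passed over all genes. The list's median was -0.78 on the log2 scale. Msx1, a homeobox gene of distal mesenchyme, was at a log2 fold change of -0.99 (SE 0.31) and Hand1, a helix-loop-helix factor of distal arch and heart, at -0.71 (SE 0.30). In mutant 1 the list's 2 summaries differed. Averaged over the list, log2 CPM was 2.93 there, the lowest of the 8 libraries, against 3.17 to 4.34 in wild-type and 2.98 to 3.29 in mutants 2 to 4. The summed level, 176 CPM, lay just below the wild-type range of 179.8 to 327 and above the 131 to 159.5 of mutants 2 to 4. Bmp7, a secreted signal picked out after its values were seen, was highest of the 8 libraries in mutant 1 at 47.9 CPM. Msx1 was at 17.3 CPM in mutant 1, below the wild-type minimum of 17.9.

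Hand2 and Gsc, 2 distal genes picked out after their values were seen, stood nearer the Dlx pattern. Gsc, a homeobox gene, was at 7.01, 9.99, 3.03 and 7.66 CPM in wild-type 1 to 4 and at 7.56, 2.92, 2.56 and 1.44 CPM in mutant 1 to 4. Hand2, a helix-loop-helix factor, was at 46.9, 79.3, 29.8 and 33.6 CPM in wild-type and at 46.2, 26.7, 19.0 and 13.6 CPM in mutant 1 to 4. In both genes mutant 1 was the highest mutant and lay inside the wild-type range, and mutants 2 to 4 lay below every wild-type library, as 1.92% of all genes did. The other members of the list did not show this pattern. For Alx4 and Msx2 mutants 2 to 4 lay inside the wild-type range, and Hand1 (6.60 CPM) and Pitx1 (0.543 CPM) were lowest of all libraries in mutant 1.

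Proximal and maxillary arch genes were split, 6 of 10 with a higher mutant mean and 4 with a lower one; their median was 0.02 on the log2 scale and 0 passed. Nr2f1, a nuclear receptor of that list, was at 0.33 (SE 0.20). Of 7 arch epithelial signal genes 6 were lower (median -0.32), with Shh at -0.48 (SE 0.35) and Bmp4 at -0.40 (SE 0.33). Of the 21 tested genes that lie beside the Dlx pairs 9 were higher and 12 lower (median -0.02), with Shfm1 at -0.22 (SE 0.17), Dync1i1, which holds Dlx5 and Dlx6 enhancers, at -0.21 (SE 0.19), and Metap1d at -0.13 (SE 0.13). The summed level of these neighbours in mutant 1, 1405 CPM, was within the wild-type range of 1364 to 1438. In these 3 lists 0 genes passed.

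Markers of other tissues that use Dlx genes were read beside these levels. Of 11 forebrain GABAergic genes 7 were tested; Slc32a1 had 0 to 9 counts a library, Gsx2 0 to 4 and Six3 0 to 1. Their summed level was 51.9 to 85.9 CPM in wild-type and 32.7 to 80.5 CPM in mutants, and the lowest was mutant 1. Isl1 alone held most of this sum in every library, such as 23.5 of the 32.7 CPM in mutant 1. Gad1 and Gad2 were at most at 1.71 and 1.76 CPM, both in wild-type 3. The sum therefore mostly follows Isl1 and is no measure of forebrain tissue. Otic and olfactory placode genes (6 of 10 tested) summed to 8.85 to 31.4 CPM in wild-type and 3.34 CPM in mutant 1, again the lowest, though mutant 3 reached 44.3 CPM. Sox10 held 1.92 of the 3.34 CPM in mutant 1, and Oc90 held 31.2 of the 44.3 CPM in mutant 3. The sum thus rests on different genes in different libraries. Of 8 limb bud genes 3 were tested, Tbx5, Tbx4 and Fgf10, and summed to 15.1 to 63.0 CPM in wild-type, 34.1 CPM in mutant 1 and 15.1 to 52.3 CPM in mutants 2 to 4. The other limb genes, Hoxa11, Hoxa13, Hoxd11, Hoxd12 and Hoxd13, had at most 3 counts in any library. Tbx5 is also a heart gene. Surface ectoderm genes (12 of 12 tested) summed to 285 to 348 CPM in wild-type, 273 CPM in mutant 1 and 327 to 369 CPM in mutants 2 to 4. Krt8 and Krt18 had the highest CPM of that list. Its mean log2 CPM in mutant 1, 4.12, lay inside the wild-type range of 3.73 to 4.25. Krt5 (8.31 CPM), Krt15 (9.48 CPM) and Wnt6 (11.3 CPM), picked out after their values were seen, were highest of the 8 libraries in mutant 1, as Dlx3 was. Others of the list went the other way in mutant 1. Epcam (19.6 CPM), Krt8 (59.5), Krt18 (52.9), Esrp1 (20.6), Grhl2 (15.8) and Tfap2c (3.51) were lowest of the 8 libraries there. The part of any of these genes in the Dlx3 level was not tested.

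Arch mesenchyme and heart genes were read in the same way. Arch mesenchyme markers (12 of 12 tested, all 12 lower in the mutant mean, median log2 -0.27) summed to 1569 to 1935 CPM in wild-type, 1665 CPM in mutant 1 and 1455 to 1774 CPM in mutants 2 to 4, and their mean log2 CPM was lowest in mutant 1 (4.37, beside 4.69 to 5.12 in wild-type). Members of the list, picked out after their values were seen, went both ways in mutant 1. Alx1 (0.668 CPM), Foxd3 (0.167 CPM) and Prrx2 (29.9 CPM) were lowest of the 8 libraries there. Prrx1 (177 CPM), Twist1 (49.7 CPM), Twist2, Tfap2a, Tfap2b and Snai2 were highest of the mutants there. A low list mean raises each Dlx value set against it below. Heart muscle genes (10 of 10 tested) summed to 7841 to 18430 CPM in wild-type, 24837 CPM in mutant 1, the highest of the 8, and 21732, 12634 and 11516 CPM in mutants 2 to 4. All 10 had a higher mutant mean (median log2 0.34), and mutant 2, with the least Dlx RNA, also lay above the wild-type range. Set against the mesenchyme mean, Dlx5 was at -2.06 ± 0.394 in wild-type and -2.15 ± 1.13 in mutants, and Dlx6 at -2.21 ± 0.256 and -2.53 ± 1.32 (log2 difference, SD, n = 4 each). The other members had higher mutant means on this scale, by 0.08 for Dlx1, 0.25 for Dlx2, 0.55 for Dlx3 and 0.59 for Dlx4. Without mutant 1 the mutant minus wild-type differences were -0.31, -0.19, -0.12, 0.096, -0.62 and -0.93 for Dlx1 to Dlx6. Without mutant 2 all 6 were above 0, with Dlx5 at 0.27 and Dlx6 at 0.10. With all libraries the mutant SD exceeded the wild-type SD for each of the 6 genes on this scale. The part of tissue content in the Dlx levels was not tested.

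**Figure D5:**
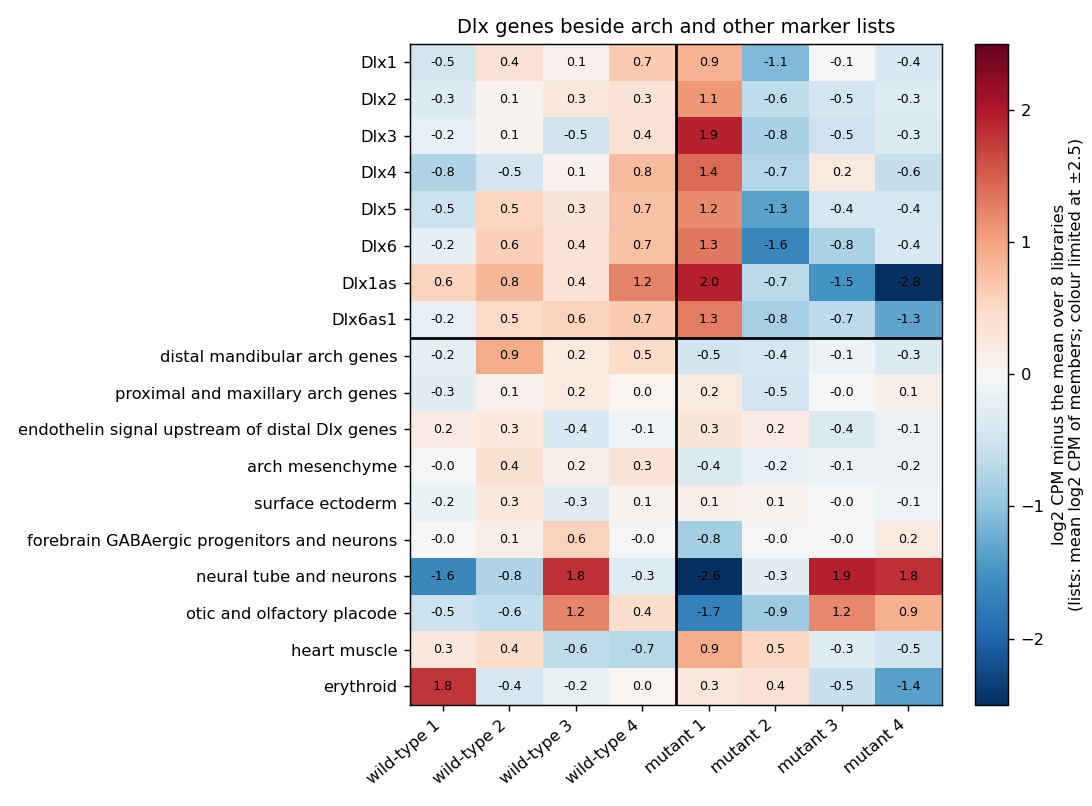
Log2 CPM of each Dlx gene, and of Dlx1as and Dlx6as1, minus its mean over the 8 libraries, above the same quantity for the mean log2 CPM of gene lists; columns are libraries and the colour scale ends at 2.5 in each direction. The column of mutant 1 is high in all Dlx rows and low for the distal mandibular, mesenchyme, forebrain, neural and placode lists.

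For mutant against wild-type the authors' deposited table gives log2 fold changes of -0.22, -0.00, 0.59, 0.33, -0.28 and -0.36 for Dlx1 to Dlx6, with a false discovery rate of 1 for each. Of its 13631 genes 0.00734% had a false discovery rate under 0.05.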

How the data were processed

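Total RNA of 8 mouse embryo dissections was sequenced after removal of ribosomal RNA with a stranded kit, per the labels' protocols. The submitters' processing notes name mm10 and the tools edgeR 3.14, HTSeq 0.6.1 and TopHat2 2.0.11; annotation and strand setting: not given in the sources used here. As the file headers show, the authors deposited raw counts per gene symbol, and a comparison with a log2 fold change, p-value and false discovery rate per gene, which is quoted only as theirs. A deposited table of scaled counts, these counts divided by 1 constant a library, was not used. Titles gave the group and number of each library.

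Counts were filtered with filterByExpr (14861 of 23420 genes kept), scaled by TMM and compared by edgeR 4.0.16's quasi-likelihood test (R 4.3.3, two-sided, genotype only), with Benjamini-Hochberg adjustment over all genes and a threshold of 0.05. Standard errors are the log2 fold change over the square root of F, and 95% intervals use its degrees of freedom. Log2 CPM used a prior count of 2. Other fits used DESeq2 1.42.0, limma 3.58.1 and the edgeR likelihood ratio test, and the test code was checked on simulated counts. P-values measure the spread between embryos only.

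Same-numbered libraries deviated from their group means together for numbers 1 and 3 (r = 0.556 and 0.676) and only weakly for numbers 2 and 4 (r = 0.185 and 0.186). This pairing was read from the data and not from the labels. Mutants 2 and 4 correlated more with wild-type 1 and 3 (r = 0.482 and 0.628) than with their own number. The fit with the number as a block is given beside the Dlx results.

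Exon lengths are unions over GENCODE M21 transcripts, with Dlx6as1 and Dlx6as2 matched as RefSeq synonyms. The members, lists and markers were chosen with earlier results of these data known. Named genes are the 6 members, transcripts overlapping them, Pygo2, the passing members of each list or else the 3 with the smallest p, and the genes most correlated with the members; exceptions are named as such. Some genes that this rule names are not reported here.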

Additional observations from a re-analysis of the deposited data

Results flagged for a closer look

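On the linear CPM scale, mutant 1 stood apart from the other 3 mutant libraries for several of these genes. Linear CPM sets a high value farther apart than log2 CPM does. The log2 values of these genes were not put to this test, so the flags hold for the linear scale only. Its gap to the nearest library, as a share of the whole range of the mutant group, exceeded the 95% critical value of Dixon's test for 4 samples for Dlx2 at 18.0 CPM (0.900), Dlx3 at 43.8 CPM (0.932), Dlx1as at 34.1 CPM (0.871), Dlx6as1 at 69.0 CPM (0.885) and Dlx6as2 at 4.22 CPM (0.934). These are 5 of 20 groups of values looked at, where chance flags about 1 in 20 groups. The 20 include the distal minus proximal log2 difference in each genotype, which was not flagged. The genes vary together, so the 5 flags are not independent. The values beside them are in the account of the marker lists, and their part in this result was not tested.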

How the results depend on the processing

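Over 8 fits that left out 1 library each and 9 other fits, 0 Dlx genes passed. Leaving out 1 library gave log2 fold changes from -0.67 to 0.021 for Dlx1, -0.58 to 0.18 for Dlx2, -0.51 to 0.86 for Dlx3, -0.36 to 0.72 for Dlx4, -1.02 to -0.0023 for Dlx5 and -1.28 to -0.06 for Dlx6; the lowest value came in each case from the fit without mutant 1. Dlx2 was at 0.043 with library totals in place of TMM. Without both libraries numbered 1, a setting chosen after seeing the data, Dlx3 was at -0.56, Dlx4 at -0.56, the distal minus proximal difference at -0.15, the median of the antisense list (2 genes tested) at -1.88 and the number of genes called at 0. That difference was -0.12 without Dlx4 and ran from -0.14 to 0.11 when 1 library was left out. The antisense median was -1.19 with limma-voom, -1.13 with the replicate block, and ran from -1.77 to -0.13 when 1 library was left out. The number of all genes called ran from 0 to 1. The correlation of Dlx3 with Dlx4 ran from 0.44 to 0.85, and its exact permutation p was 0.0933 without wild-type 4 and 0.317 without mutant 1. The replicate block changed no call among the Dlx genes. The cause of these shifts was not tested.

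Dlx4 and Dlx6as2 rest on few counts. The 4 embryos a group and the spread in mutants set the precision: the 95% intervals of the 6 Dlx genes span log2 fold changes from -1.64 to 1.90.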
